A study of Sus scrofa with 102 samples.

Results

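Subcutaneous fat, liver and longissimus dorsi muscle of suckling female piglets were set against each other at 12 days of age, to describe which genes marked each tissue at that age. The arrays with the 12-days label were taken, 33 of the 102 arrays of the series; 32 were used, 11 of fat, 11 of liver and 10 of muscle. The piglets were crossbreds of 2 types. LWDL piglets came from Landrace × Large White × Duroc (LWD) sows and a Landrace boar, and gave 5 fat, 5 liver and 4 muscle arrays. LWDM piglets came from the same kind of sow and a Meishan boar, a fat Chinese breed, and gave 6 arrays of each tissue. All were suckled and untreated; 2 dams and 1 boar stood behind each type, so the piglets of a type were siblings and the p-values measure the spread among these few litters only. The 45 arrays with the 5-months label are used below only to set the piglets beside older pigs.

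White fat stores triglyceride in adipocytes, which take up fatty acids released by lipoprotein lipase, make others from glucose, and secrete leptin. Liver makes most plasma proteins, disposes of drugs, steroids and nitrogen, and supplies glucose and ketone bodies to the other tissues. Skeletal muscle is built of sarcomeres, whose thick and thin filaments slide when calcium is released from the sarcoplasmic reticulum, and burns glucose and fatty acids to do so.

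Each animal's RNA was labelled with Cy3 and hybridised beside a common reference labelled with Cy5. That reference was a pool of liver RNA from 2 female LWD pigs. It is called sow liver below, although the paper does not give the age of these pigs. The level given throughout is log2 of animal over reference, so 0 means the level of that liver pool and a step of 1 a doubling. A tissue difference is that tissue's level minus the mean of the other tissues, with breed type as a term, and was called when it was over 2-fold with an adjusted p under 0.05. Gene symbols were known for 2011 of the 43221 probes, and these came from the study's lists of genes that differed between the breed types on these samples, so the genes named here lead among the named ones only and are not independent evidence of a breed type difference. The signal came from whole tissue, in which fewer cells of a type and less RNA per cell cannot be told apart.

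Some arrays stood apart or went against their labels. The muscle array LWDL replicate 2 was left out because its Cy5 channel, which should hold sow liver, had a mean of 6.03 over 17 skeletal muscle markers (log2 over the array's 75th percentile), against -7.12 to 1.21 on the other 32. The reference channel also differed between tissues on the arrays that were kept: 591 probes (1.82%) were called between fat and the other tissues in Cy5 alone, 597 (1.84%) for liver and 551 (1.70%) for muscle, and the difference in Cy3 alone is given too for the adipocyte, muscle and metallothionein lists, whose medians it moved by over 1.5 times. The breed type labels of the 12-day muscle arrays went against the rest: of 128 probes that differed alike by breed type in 12-day fat and 12-day liver, 11 (8.59%) had the same direction in 12-day muscle, against 103 (80.5%) in muscle at 5 months. Over 158 probes chosen in fat and liver at 5 months, all 22 fat and liver arrays lay on their label's side and 7 of the 10 muscle arrays lay on the other. The labels were kept. The tissue differences hardly rested on them, since 7387, 10358 and 10118 probes were called for fat, liver and muscle without the breed term, against 7391, 10361 and 10076 with it. On each array 65.7% to 79.1% of probes were well above background in Cy3, with tissue medians of 75.4% in fat, 70.8% in liver and 67.5% in muscle. Of 4288 values of the named genes, 168 were listed at exactly 0, and in all 168 neither channel was above background. Such a 0 is therefore no measured level. Where no array of a tissue was well above background for a gene, a difference against that tissue is only a fitted value, and the fold that the data bound is given as "at least".

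The tissues differed widely from each other. The correlation between arrays over the 32463 probes tested had a median of 0.428 between fat and liver, 0.435 between liver and muscle and 0.783 between fat and muscle, beside 0.948 within fat, 0.883 within liver and 0.957 within muscle. Since the reference was liver, the fat and muscle ratios share its level, and these correlations do not order the distances between the tissues. Of the probes tested, 16952 (52.2%) differed in at least 1 pair of tissues, 2453 differed in all pairs, and 15511 (47.8%) were called in none. Between fat and liver 10038 probes were called, between fat and muscle 9226 and between liver and muscle 12416, with median absolute differences of 0.59, 0.61 and 0.71. Differences over 64-fold depended on the scale. They were found on the ratios for 392 probes between fat and liver, 33 between fat and muscle and 462 between liver and muscle, and in Cy3 alone for 534, 234 and 728.

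Fat was higher at 4073 probes (12.5%) and lower at 3318 (10.2%). Liver was higher at 5125 (15.8%) and lower at 5236 (16.1%). Muscle was higher at 4565 (14.1%) and lower at 5511 (17.0%), a balance that turned with normexp background correction and loess (3383 higher and 2831 lower). Probes enriched in a tissue, that is over 4-fold above each of the other tissues, numbered 480 in fat (1.48%), 934 in muscle (2.88%) and 1894 in liver (5.83%). These counts fell to 142, 471 and 1060 with a stricter filter on dim probes, and with normexp and loess to 232 in fat and 1166 in liver. All arrays of a tissue lay above all arrays of the others at 1780 probes for fat (5.48%), 3697 for liver (11.4%) and 3694 for muscle (11.4%). They lay below at 1037 (3.19%), 3399 (10.5%) and 2052 (6.32%), in the same order. The median difference of all probes was 0.07 in fat, -0.12 in liver and -0.10 in muscle.

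**Figure D1:**
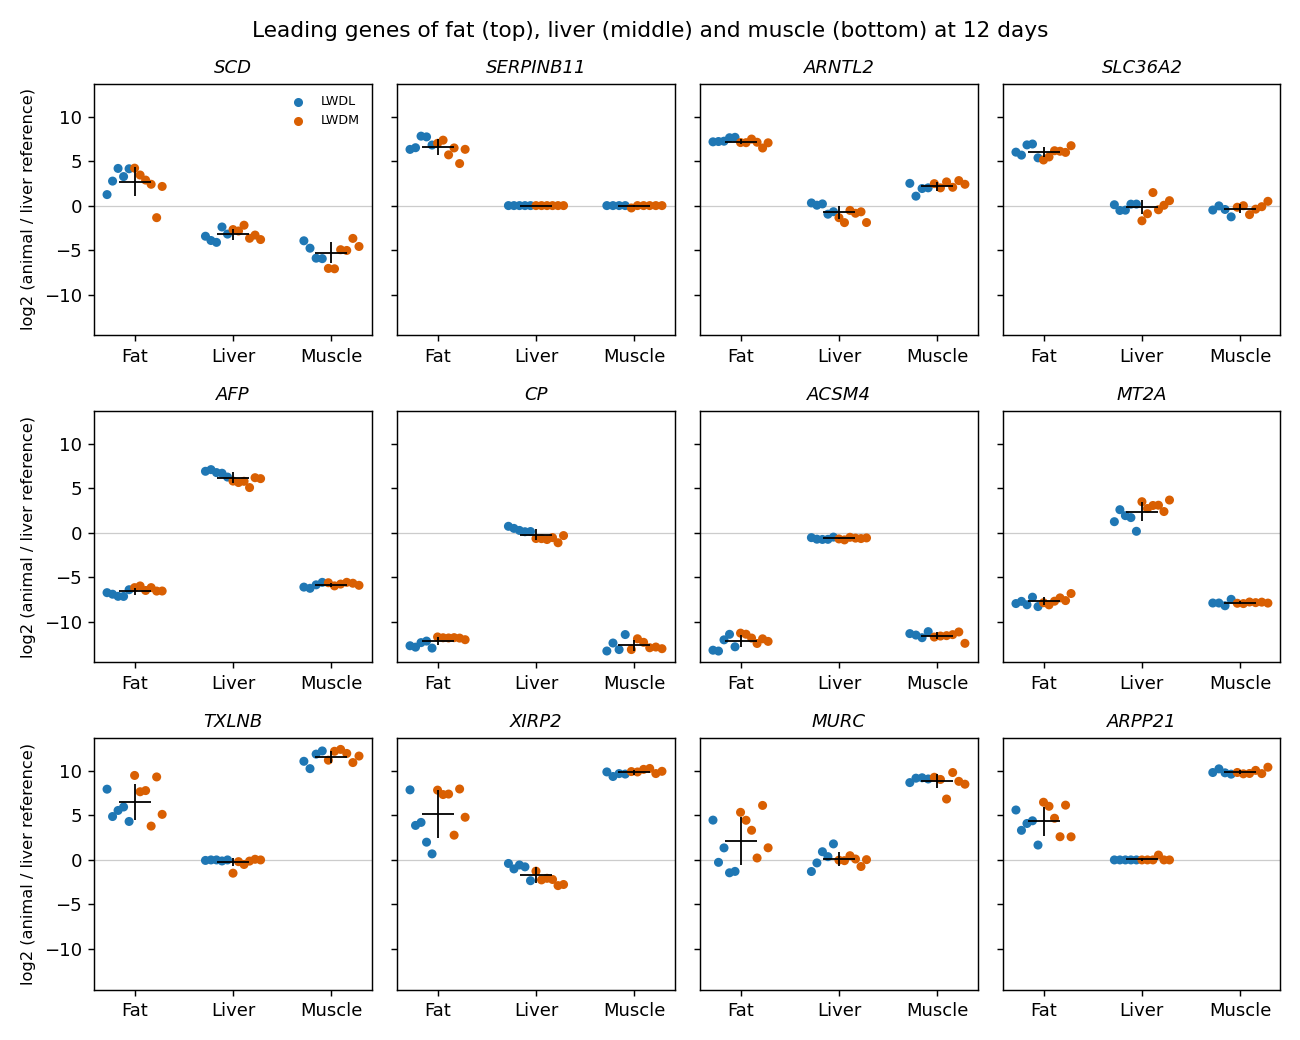
Level of the 4 named genes with the largest higher difference in fat (top row), liver (middle) and muscle (bottom), as log2 of animal over sow liver reference; each point is 1 array, coloured by breed type, and bars give the mean ± SD of a tissue. SCD, with the largest difference in fat, had 1 low fat array at -1.36, and TXLNB and XIRP2 ranged widely among the fat arrays (3.80 to 9.49 and 0.68 to 7.97) but not among those of muscle.

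Fat at 12 days was marked by genes of lipid storage and lipid synthesis and by genes of connective tissue. Of 24 adipocyte markers, 9 were named and tested: 8 were higher in fat, and their median difference was 3.42, beside 0.07 over all probes; 4 were enriched. The size depended on the scale: in Cy3 alone the median was 5.28, with 8 higher as well, and the median fat over muscle fold was 16.2, against 3.86 as a ratio. Their mean level was 3.89 to 4.50 on the fat arrays (median 4.20), 1.65 to 2.26 on those of muscle (1.78) and -0.66 to -0.01 on those of liver (-0.29), with no overlap. Adiponectin and perilipin 4 were not among the named probes.

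Leptin (LEP), the hormone by which fat reports its stores, had levels of 5.41, 5.66 and 6.64 in fat (lowest, median and highest). In liver it was not well above background on any array, and likewise in muscle. The fitted difference of fat was 5.59 ± 0.14 (SE), against levels that were not measured. The data bound it at at least 21.8-fold over liver and at least 20.6-fold over muscle. Perilipin 1 (PLIN1), the coat protein of the fat droplet, ran from 4.88 to 5.82 in fat (median 5.48), from -0.53 to 1.71 in liver (0.49) and from -0.30 to 1.35 in muscle (0.28). It was at least 12.2-fold higher in fat than in muscle, where no array measured it.

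Lipoprotein lipase (LPL) and the fatty acid transporter CD36, which bring fatty acids into cells, were shared by fat and muscle. LPL had levels of 7.09, 7.64 and 7.90 in fat and 6.41, 7.13 and 7.54 in muscle, which overlapped, against -2.10, 0.14 and 1.34 in liver. Its difference was 4.22 in fat, 3.42 in muscle and -7.65 in liver. The narrow gap between fat and muscle rested on the scale: fat minus muscle was 0.53 as a ratio to the reference and 4.01 in the Cy3 channel alone, as the reference channel was itself 3.50 higher on the fat arrays at this probe. CD36 was higher in fat (4.66) and in muscle (2.86) and its levels did not overlap, at 8.78 to 9.35 in fat and 7.59 to 8.18 in muscle. MRAP, an accessory protein of melanocortin receptors, was higher in fat by 2.26 (at least 1.26-fold over liver and 1.31-fold over muscle, where no array measured it), from a level under that of the sow liver in all tissues (-2.43 to -0.96 in fat).

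Fatty acid and triglyceride synthesis was on the whole a feature of fat rather than liver. Of 13 members tested, 10 were higher in fat, 1 was lower, and the median difference was 2.69; 2 were higher in liver and 6 lower, and 9 were lower in muscle. The list's mean level was -0.13 to 1.76 on the fat arrays (median 1.12), -1.17 to -0.51 in liver (-0.91) and -2.48 to -1.57 in muscle (-1.94). Stearoyl-CoA desaturase (SCD), which makes oleate from stearate, had the largest higher difference of the named genes in fat. Its levels were -1.36, 2.87 and 4.21 in fat, -4.13, -3.31 and -2.20 in liver and -7.10, -5.00 and -3.69 in muscle, so that fat lay apart while liver and muscle overlapped. It was 121-fold higher in fat than the mean of the others (6.92 ± 0.44; adjusted p = 3.5e-15), and the 4 other SCD probes tested gave the same call. The fat array of LWDM replicate 5 alone lay under the reference.

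Malic enzyme (ME1), which supplies the NADPH, was higher in fat by 4.83, fatty acid synthase (FASN) by 4.69, the elongase ELOVL6 by 4.66 and PNPLA3, a lipid droplet protein, by 4.20. ELOVL6 varied most among them, from -1.35 to 3.99 in fat, and its lowest fat arrays overlapped those of liver (-2.52 to 0.13). The member that went the other way was glycerol-3-phosphate acyltransferase (GPAM), the entry step of glycerolipid synthesis, which was lower in fat (-1.58) and higher in liver (2.75; -2.14 to -0.99, against -4.95 to -3.72 in fat).

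Connective tissue matrix genes were as clear a mark of fat. Of 17 tested, 13 were higher in fat, 1 was lower and 8 were enriched, with a median difference of 2.61. Their mean level was 3.10 to 3.82 in fat, 1.32 to 2.13 in muscle and 0.05 to 0.68 in liver. Periostin (POSTN) had levels of 3.55, 4.34 and 4.98 in fat, -0.58, -0.12 and 0.68 in liver and -2.02, -1.15 and 0.15 in muscle, a 29.2-fold difference (4.87 ± 0.18). Collagen chain COL1A2 was higher by 4.78, COL6A6 by 4.07 and the mesenchymal receptor PDGFRA by 3.75. No liver array measured these 3, and fat was at least 4.69-fold, 2.82-fold and 1.98-fold over liver. The hyaluronan-binding protein TNFAIP6 was high in fat (8.12 to 9.72) and in muscle (5.86 to 7.79), with differences of 5.62 and 2.13, against -1.23 to 2.68 in liver. The exception was DLK1, a regulator of preadipocytes, which was lower in fat (-1.65) and higher in muscle (1.75), with overlapping levels.

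Other named genes that led in fat belonged to no list. SERPINB11, of the serpin family of protease inhibitors, was not well above background on any liver or muscle array and had levels of 4.72, 6.50 and 7.80 in fat, at least 5.04-fold over liver and 4.75-fold over muscle. ARNTL2, a transcription factor of the circadian clock, had levels of 6.47, 7.16 and 7.67 in fat and 1.06 to 2.81 in muscle, and lay under the reference on most liver arrays (-1.91 to 0.30). The amino acid transporter SLC36A2 was higher by 6.28 and the protease ADAMDEC1 by 5.13. Neither was measured on any liver or muscle array. Fat was at least 7.71-fold over the other tissues for SLC36A2, and for ADAMDEC1 at least 4.11-fold over liver and 4.12-fold over muscle. SGK2, a kinase related to AKT, stood in a graded order, at 0.50 to 2.08 in fat, -1.35 to -0.54 in liver and -8.44 to -5.73 in muscle.

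The 5 named genes lowest in fat on all its arrays were DMBT1 (-4.99), CLEC4G (-4.23), HOMER1 (-3.96), C4BPA (-3.79) and CLDN14 (-3.64). DMBT1 is a scavenger receptor, CLEC4G a lectin of the sinusoidal endothelium of liver, C4BPA an inhibitor of complement and CLDN14 a tight junction claudin, and these 4 were higher in liver. HOMER1, a scaffold protein of synapses and muscle, was higher in muscle by 2.96.

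**Figure D2:**
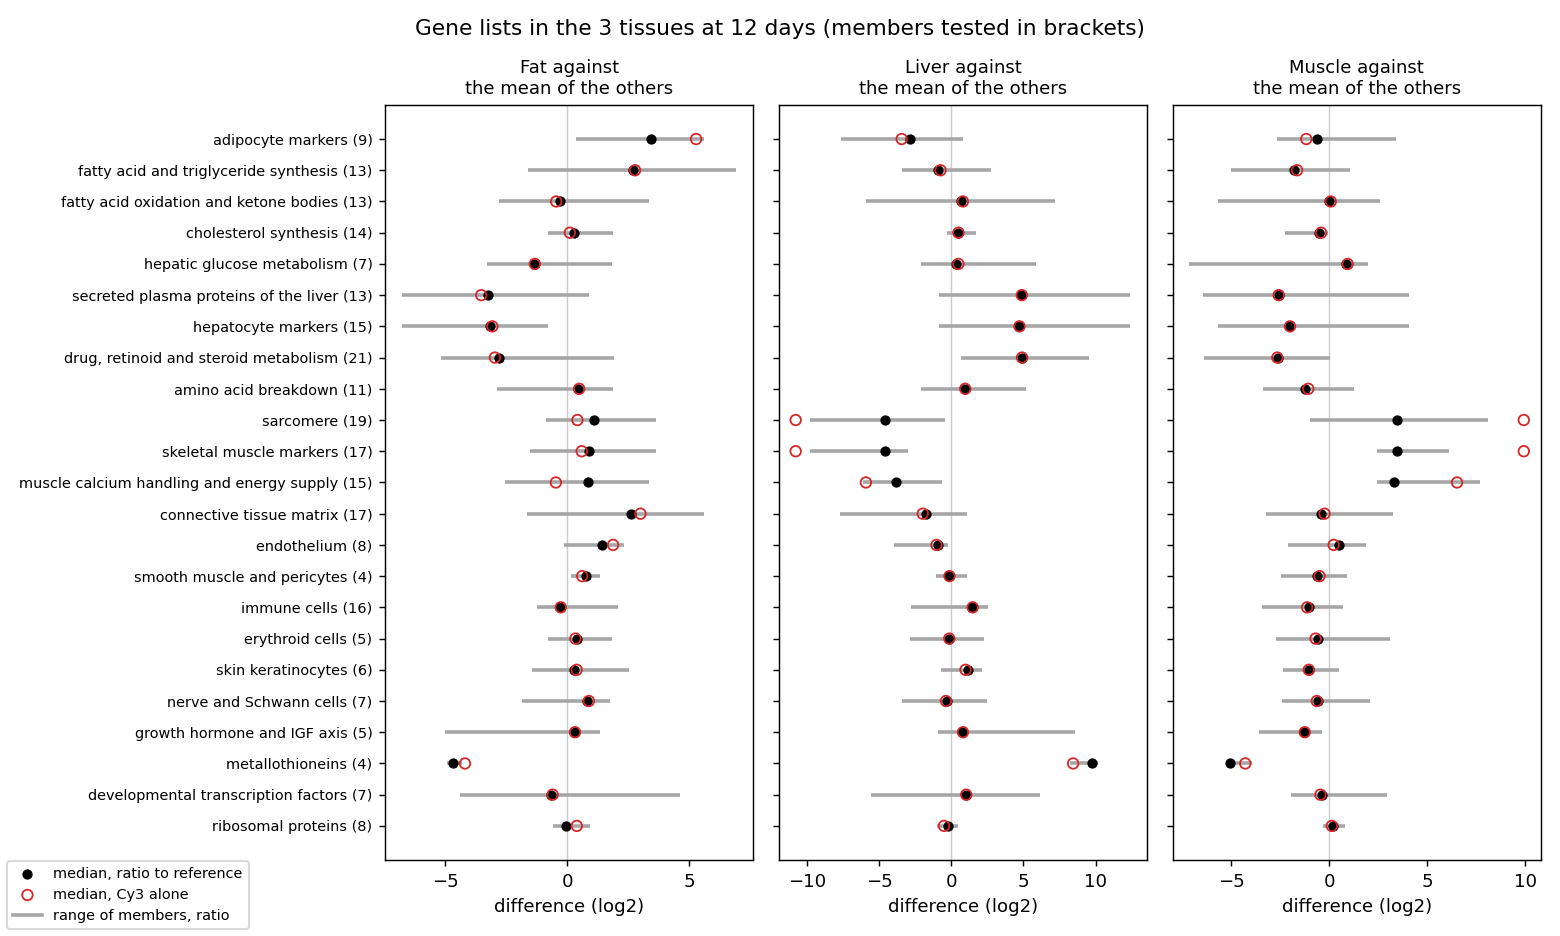
Differences of 23 gene lists in fat, liver and muscle, each against the mean of the others (log2); black points are medians of the members tested, grey bars their range, and red circles the medians in the Cy3 channel alone. In the muscle panel the sarcomere and skeletal muscle marker lists moved from a median of 3.49 as a ratio to 9.93 in Cy3 alone, and for most other lists the black and red points lie close together.

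Liver was marked by secreted proteins, by enzymes of drug and steroid metabolism and by metallothioneins. Of 13 secreted plasma proteins tested, 12 were higher in liver, 11 were enriched, and the median difference was 4.83, beside -0.12 over all probes. The list's mean level was -0.52 to 0.33 in liver, near that of the reference, against -6.34 to -5.68 in fat and -5.65 to -5.16 in muscle. Of 15 hepatocyte markers, 14 were higher in liver, with a median of 4.69, and 13 were lower in fat and in muscle. The 1 member of both lists that was not higher in liver was MASP1, a protease of the lectin pathway of complement, which was higher in muscle (4.10 in muscle, -3.23 in fat and -0.86 in liver). It was named after its value was seen.

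Alpha-fetoprotein (AFP), the main plasma protein of the fetus, had the largest fitted difference of the named genes in liver. Its levels were 5.08, 6.19 and 7.09 in liver, that is far above the sow liver of the reference, and -7.15 to -5.97 in fat and -6.24 to -5.57 in muscle. The fitted difference was 12.40 ± 0.16, against levels that were not measured. Fat and muscle were not well above background, and liver was at least 560-fold over fat and at least 396-fold over muscle. Ceruloplasmin (CP), the copper-carrying oxidase of plasma, followed with a fitted 12.19, but from levels of -1.12 to 0.72 in liver, around those of the reference. It was at least 433-fold over fat and 297-fold over muscle. IGFBP1, a binding protein of insulin-like growth factors, was higher by 8.54, the antimicrobial peptide LEAP2 by 6.42 and serum amyloid P (APCS) by 6.28. LEAP2 and APCS spread widely in liver, over -2.94 to 2.15 and -3.66 to 0.92. No fat or muscle array measured them. LEAP2 was at least 6.66-fold over muscle, and APCS at least 9.43-fold over fat and 6.39-fold over muscle.

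Of 21 genes of drug, retinoid and steroid metabolism, 20 were higher in liver and 17 were enriched, with a median of 4.90. In muscle 20 were lower, and in fat 17 were lower and 2 higher. Glutathione transferase GSTA1 was higher in liver by 9.51, alcohol dehydrogenase ADH1C by 9.13, the glucuronosyltransferase UGT2B17 by 9.13, the cytochrome CYP2C18 by 8.81 and the estrogen sulfotransferase SULT1E1 by 8.32. SULT1E1 was measured in liver only, at least 25.0-fold over fat and 17.8-fold over muscle. The levels of GSTA1 were -2.85, -1.85 and -1.05 in liver and -12.12 to -10.34 in fat and muscle, so that the piglet liver itself lay under the sow liver. ACSM4, a medium-chain acyl-CoA synthetase, was higher by 11.22 and varied little in liver (-0.80 to -0.49). It was measured on 1 of 11 fat arrays and on no muscle array, and liver was at least 183-fold over muscle. Genes in this list belong to families with close copies, and probes to near-identical members may cross-hybridise.

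The 4 metallothioneins, small proteins that bind zinc and copper, were all higher in liver and enriched there, with a median of 9.75 (8.44 in Cy3 alone). MT2A had levels of 0.17, 2.59 and 3.67 in liver, -8.29 to -6.82 in fat and -8.20 to -7.48 in muscle, a difference of 10.17 ± 0.21 (adjusted p = 1.5e-28). MT1E was higher by 10.03, MT1L by 9.48 and MT1F by 8.21. The list's mean level in liver was mostly above the sow liver (-0.03 to 3.13, median 2.13). These genes are near-identical copies, so the 4 probes may read the same transcripts and are not 4 separate results.

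Single genes of glucose and nitrogen metabolism differed widely, while the lists' counts lay near those of the 1294 named genes tested (28.6% higher and 25.9% lower in liver). Of 7 genes of hepatic glucose metabolism, 3 were higher in liver and 1 lower. Glucose-6-phosphatase (G6PC), which frees glucose into blood, was higher by 5.89, and phosphoenolpyruvate carboxykinase (PCK1), the entry step of gluconeogenesis, by 5.27. PCK1 was also 1.85 higher in fat, at -2.50 to -0.63, and had the largest lower difference of the named genes in muscle (-8.65, -7.63 and -6.89; 139-fold lower, -7.12 ± 0.23). The alanine aminotransferase GPT was lower in liver (-2.12) and higher in muscle (1.29). Of 11 genes of amino acid breakdown, 4 were higher in liver and 4 enriched, among them AFMID of the tryptophan path (5.16) and AMDHD1 of the histidine path (5.00). No fat or muscle array measured AFMID, and liver was at least 3.95-fold over fat and 3.53-fold over muscle.

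Of 13 members of fatty acid oxidation, 5 were higher in liver and 3 lower, again near the shares of all named genes. Among the higher was the very long chain acyl-CoA synthetase SLC27A2 (7.17). Lower were OXCT1, with which other tissues take ketone bodies back (-4.26; higher in fat by 2.21 and in muscle by 2.05), the heart-type fatty acid binding protein FABP3 (-5.93) and PDK4, which closes the pyruvate dehydrogenase gate (-2.17). Of 14 genes of cholesterol synthesis, 2 were higher in liver (EBP, 1.44, and MSMO1, 1.70) and 5 lower in muscle, and on most arrays of all tissues the list lay under the sow liver.

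In the growth hormone and IGF axis, IGF1 was higher in fat by 1.16, lower in muscle (-1.27), and not called in liver (0.11 ± 0.18), where its levels ran from -1.48 to 1.45. The growth hormone receptor (GHR) was higher in fat by 1.36, and its levels lay under the sow liver in all tissues (-3.67 to -2.65 in liver).

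Muscle was marked by the contractile apparatus and its calcium and energy supply. Of 17 skeletal muscle markers, all 17 were higher in muscle and lower in liver, with a median difference of 3.49 in muscle. Of 19 sarcomere genes, 17 were higher in muscle, and of 15 genes of calcium handling and energy supply all 15, with a median of 3.31. Enriched were 3 of the skeletal muscle markers, 3 of the sarcomere genes and 7 of the genes of calcium handling and energy supply. The size of these differences depended on the scale, as the reference channel rose with the animal channel at these probes: the median of the 17 markers was 9.93 in the Cy3 channel alone, and in liver it was -4.59 as a ratio and -10.81 in Cy3. For the sarcomere genes the medians in muscle were 3.49 and 9.93, and for calcium handling and energy supply 3.31 and 6.52. Skeletal alpha-actin (ACTA1), the thin filament, had levels of 8.35, 9.22 and 9.73 in muscle, 6.73, 7.41 and 8.51 in fat and -2.41, -1.25 and -0.06 in liver. It was 70.3-fold higher in muscle than the mean of the others (6.14 ± 0.22; 9.46 in Cy3) and lower in liver (-9.78), where 2 of 11 arrays measured it.

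The genes that led in muscle are ordered here by their ratios. Cy3 alone may order them otherwise, as the 17 skeletal muscle markers had a median of 9.93 there and 3.49 as a ratio. Among the named genes muscle was led on the ratios by TXLNB, a taxilin of heart and skeletal muscle. Its levels were 10.25, 11.78 and 12.41 in muscle, 3.80, 5.95 and 9.49 in fat and -1.49 to 0.07 in liver, where no array measured it. The difference was 8.40 ± 0.46 (adjusted p = 4.6e-17), and muscle was at least 247-fold over liver. XIRP2, an actin-binding protein, was higher by 8.08 at 9.37 to 10.27 in muscle (at least 1515-fold over liver), and MURC, a caveolar protein of muscle, by 7.68 at 6.84 to 9.82. ARPP21, a phosphoprotein regulated by cyclic AMP (7.67), LRRC39, of the sarcomere's M-band (6.93), the calcium release channel RYR3 (6.09), the potassium channel subunit KCNE1L (5.35), MEGF10 of satellite cells (5.32), PLCXD2 (4.97) and the M-band protein MYOM2 (4.91) followed. XIRP2, ARPP21, LRRC39, RYR3 and MYOM2 were measured on no liver array, and muscle was at least 29.6-fold over liver for ARPP21, 104-fold for LRRC39, 5.64-fold for RYR3 and 3569-fold for MYOM2. These bounds were read in Cy3 and not on the scale of the ratios. They can exceed the fold of the ratios, as for MYOM2, and do not bound it. PLCXD2 was measured on no fat array and was at least 2.63-fold over fat. All of these but MEGF10, PLCXD2 and MYOM2 ranged over more than 4 log2 units among the fat arrays, from -0.39 to 6.12 for LRRC39.

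In the energy supply list PRKAG3, the muscle gamma subunit of AMP-activated kinase, was higher by 4.78 and enriched, sarcolipin (SLN), which restrains the calcium pump, by 4.20, and carbonic anhydrase CA3 by 3.58. No liver array measured SLN. The giant filament protein nebulin (NEB) was higher by 5.24. The named genes lowest in muscle on all its arrays included PCK1, SGK2 (-6.90), the retinol carrier RBP4 (-6.64) and SLC27A2 (-5.64), and each of these 4 was higher in liver.

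**Figure D3:**
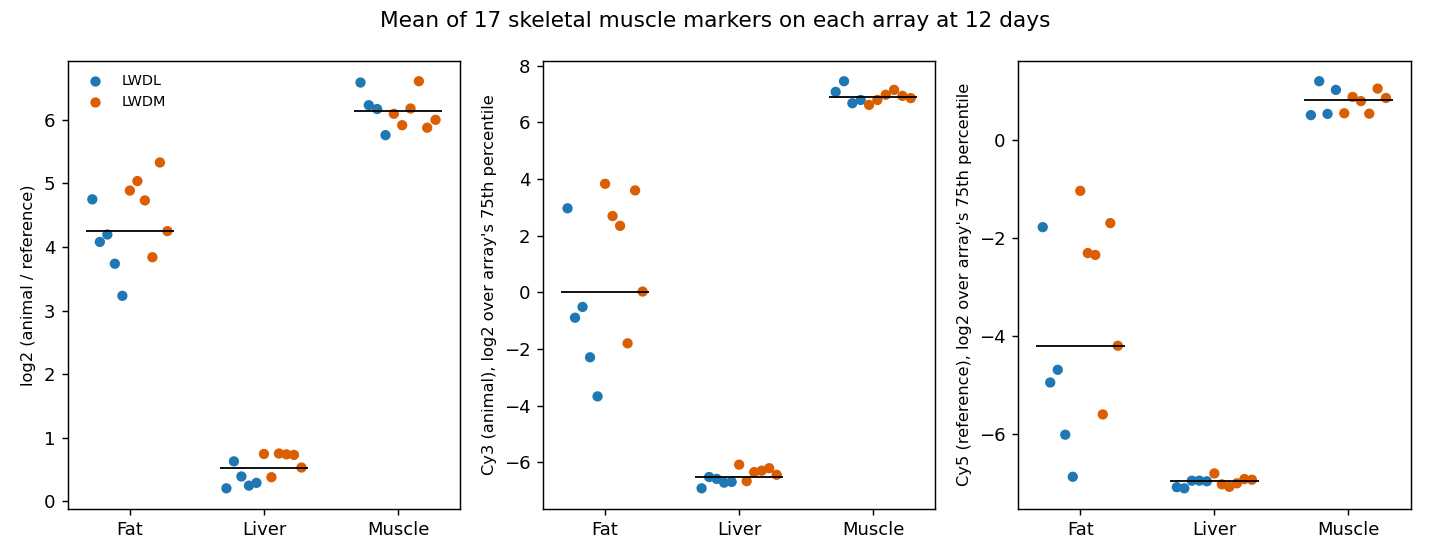
Mean over 17 skeletal muscle markers on each 12-day array, as log2 of animal over reference (left), in the Cy3 channel of the animal (middle) and in the Cy5 channel of the reference (right), the last 2 as log2 over the array's 75th percentile; points are arrays coloured by breed type and lines are medians. The fat arrays spread from -3.67 to 3.84 in Cy3 and from -6.88 to -1.03 in Cy5, between liver and muscle in Cy3, while the lowest reached into the liver range (-7.12 to -6.81) in Cy5.

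Skeletal muscle markers were also present on the fat arrays. Between 14 and 17 of the 17 markers were well above background on each fat array, against 3 to 7 on each liver array. Their mean level was 3.23, 4.25 and 5.33 in fat (lowest, median and highest), 0.21, 0.53 and 0.75 in liver and 5.76, 6.13 and 6.60 in muscle. In Cy3 alone the fat arrays ran from -3.67 to 3.84, a far wider spread than that of liver (-6.91 to -6.08) or muscle (6.62 to 7.46). Of the 17, 8 were called higher in fat and 1 lower as ratios, 4 and 3 in Cy3 alone. The part of muscle fibres in the fat samples was not tested. XIRP2 on the fat arrays was 7.87, 3.88, 4.21, 1.99 and 0.68 in LWDL replicates 1 to 5 and 7.84, 7.34, 7.40, 2.78, 7.97 and 4.79 in LWDM replicates 1 to 6. The same arrays that were high for XIRP2 were high for MURC, which had 4.47 in LWDL replicate 1, 5.35, 4.46, 3.33 and 6.12 in LWDM replicates 1, 2, 3 and 5, and -1.44 to 1.36 on the other 6.

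At some fibre proteins the ratio varied far less than either channel. The fast light chain MYL1 had nearly the same ratio on all fat arrays (4.80 to 5.66), while its Cy3 level ran from -2.66 to 6.29 and its Cy5 level from -7.65 to 0.85. On the liver arrays its Cy5 level was -8.34 to -7.55 and on the muscle arrays 2.64 to 3.40, although the reference was to be the same RNA on all. Fat minus muscle was -0.88 as a ratio and -6.53 in Cy3 for MYL1, -1.03 and -6.57 for MYLPF, -1.52 and -6.94 for SLN, and -1.47 and -6.02 for MYL2. At genes whose reference channel moved less the scales lay closer, as for MURC (-6.66 and -7.03) and ARPP21 (-5.53 and -5.35). The calls of MYLPF, SLN and MYOM2 as higher in fat (1.54, 1.92 and 1.92) were not made in Cy3 alone (1.28, 0.99 and 0.44). Over all probes the fat minus muscle difference moved by over 1 log2 unit between the scales at 788 (2.43%). The cause was not tested.

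**Figure D4:**
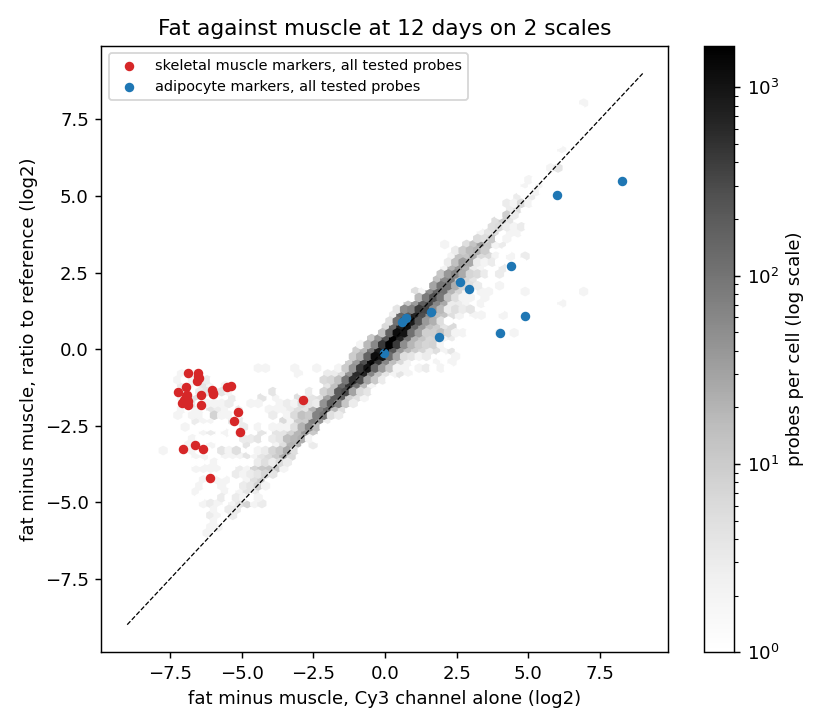
Fat minus muscle at 12 days for the 32463 probes tested, in Cy3 alone (x axis, log2) and as a ratio to the reference (y axis, log2); grey cells count probes on a log scale, coloured points are all tested probes of skeletal muscle markers and adipocyte markers, and the dashed line marks equal values. The muscle markers lie above the line, as MYL1 at -6.53 and -0.88, and LPL and LEP among the adipocyte markers below it, at 4.01 and 0.53 and at 8.28 and 5.49.

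The myosin light chains and the fatty acid binding proteins showed how members of a family were divided. The fast chains MYL1 (3.49) and MYLPF (3.08) and the slow and cardiac chain MYL2 (3.69) were higher in muscle, and all 3 were not well above background on any liver array. MYL7, the atrial chain, was not called in any tissue (0.64 in muscle, at 0.38 to 2.34). FABP3 and FABP5 were higher in fat (3.33 and 4.73) and in muscle (2.61 and 2.59) and lower in liver (-5.93 and -7.33). FABP5 was measured on no liver array and was at least 30.4-fold higher in fat. FABP3 was 5.81 to 6.49 in fat and 4.78 to 5.88 in muscle, which overlapped. FABP9 (4.10) and FABP7 (3.32) were higher in fat only, and FABP7 was measured on 10 of 11 fat arrays and on none of the others.

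Markers of other cell types went in both directions in most lists, and their part in the results above was not tested. Their counts are to be read beside the 1294 named genes tested, of which 23.6% were higher and 20.9% lower in fat, 28.6% and 25.9% in liver, and 18.9% and 31.6% in muscle, more than among all probes. Of the smaller lists, with 4 to 8 genes, several counts lie near these shares. Of 8 endothelial markers, 5 were higher in fat and 4 lower in liver. CD34 (1.66 in fat, 1.89 in muscle) and CD300LG (2.20 and 1.79), a lectin-like molecule of capillaries, were higher in both. The list's mean level was 1.59 to 2.40 in fat, 1.05 to 2.05 in muscle and -0.02 to 0.70 in liver. Of 16 immune cell markers, 10 were higher and 1 lower in liver, 10 lower in muscle, and 3 higher and 2 lower in fat, where the median was -0.29. The levels were -0.42 to 0.95 in liver, -1.11 to 0.09 in fat and -1.96 to 0.02 in muscle, which overlapped. The T cell receptor chain CD3D was higher in liver by 2.56. The neutrophil protein S100A12 was higher in fat (1.66) and liver (1.77) and lower in muscle (-3.43), and the macrophage markers CD163 (1.28) and MS4A7 (2.10) were higher in fat. The 2 members lower in fat were CD3D and IGJ.

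Of 4 smooth muscle markers, 2 were higher in fat, namely CALD1 (1.26, and 0.96 and not called in Cy3) and MYLK (1.34), and both were lower in muscle. Of 5 erythroid genes, 2 were higher in fat, 2 higher and 2 lower in liver, and 1 higher and 2 lower in muscle, with medians of 0.42, -0.16 and -0.58. ERMAP was higher in liver by 2.29 and the ankyrin ANK1 in muscle by 3.11 (8.14 in Cy3). Of 6 keratinocyte genes, 1 was higher (the transglutaminase TGM3, 2.55) and 2 lower in fat, 3 were higher in liver and 3 lower in muscle. ASPRV1, of the upper epidermis, was not called as a tissue difference in fat and went with breed type there: it was well above background on the 5 LWDL fat arrays, at -0.69 to 3.02, and on none of the 6 LWDM arrays. Of 7 nerve and Schwann cell genes, 2 were higher and 2 lower in fat, 3 and 3 in liver, and 2 and 1 in muscle. NCAM1 was higher in fat (1.43) and in muscle (2.00).

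Transcription factors of development differed between the tissues in both directions. Of 12, 7 were tested, of which 4 were higher and 3 lower in liver, 1 higher and 3 lower in fat, and 2 higher and 3 lower in muscle. HAND2 (6.16, and at least 10.4-fold over fat, where no array measured it), SOX9 (4.52) and ONECUT1 (3.81), the last a factor of hepatocytes and bile ducts, were higher in liver. MKX, a factor of tendon and connective tissue, was higher in fat (4.62; 6.62 to 7.80) and was not well above background on any liver array. Of 8 ribosomal proteins, limma called none in any tissue on the ratios, since none passed 2-fold, and 1 was lower in liver in Cy3 alone. Without the 2-fold limit 2 had an unadjusted p under 0.05 in fat, 2 in liver and 3 in muscle.

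Breed type changed the tissue differences at few probes. By limma's test of the interaction, 245 probes (0.755%) had a fat difference that was unlike in LWDL and LWDM, 278 (0.856%) a liver difference and 671 (2.07%) a muscle difference. All 3 counts rest on the muscle labels described above. The muscle arrays LWDL replicates 3, 4 and 5 lay on a slide of another scan day. In muscle, breed type therefore cannot be fully told apart from slide and scan day. With the left-out muscle array back in, the fat and liver counts were 56 and 81. Normexp with loess gave 163 for liver and 317 for muscle. Leaving out 1 array moved the fat count to 156 (without fat LWDL replicate 3) and the muscle count to 335, 409 and 1036 (without muscle LWDL replicate 3, LWDM replicate 3 and LWDL replicate 1). Without the muscle arrays, fat minus liver differed between the breed types at 351 probes (1.08%), in a fit that did not pair same-numbered fat and liver arrays. Within a tissue, LWDM and LWDL differed at 444 probes in fat (1.37%) and 511 in liver (1.57%), and at 0 in muscle (0.00%), where 1314 probes had an unadjusted p under 0.05. The 0 in muscle rests on the same muscle labels.

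Among the lists, cholesterol synthesis in liver held the most calls by breed type, through genes that the study had picked for such differences. All 14 members tested were lower in LWDM than in LWDL liver, by a median of -2.32, while limma called 0 in fat and 0 in muscle (1 and 0 at an unadjusted p under 0.05). The muscle counts rest on the doubtful breed type labels of the muscle arrays and do not show an absence there. The list's mean level in liver was -0.38, -2.15, -0.84, 0.03 and 0.04 in LWDL replicates 1 to 5, the level of the sow liver on most of them, and -3.40 to -3.16 on all 6 LWDM arrays, with no overlap. Methylsterol monooxygenase (MSMO1) had -1.16, -3.23, -1.61, -0.59 and -0.73 in LWDL and -5.03 to -4.58 in LWDM, a difference of -3.34 (adjusted p = 0.000866). INSIG1, which holds back the sterol sensor, was lower by -1.04 and the transcription factor SREBF2 by -1.46. These genes were listed by the study for such differences on these samples. Of the 16 immune cell markers, 5 were also lower in LWDM liver, with a median of -0.88, and their part in the cholesterol result was not tested.

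Other named genes of liver went with breed type. LEAP2 was lower in LWDM liver (-2.94 to -1.13, against 1.23 to 2.15 in LWDL; -3.88), as was APCS (-3.34), while 3 of the 4 metallothioneins were higher in LWDM, MT2A by 1.55. The tryptophan enzyme AADAT was well above background on all 6 LWDM liver arrays, at 2.87 to 3.93, and on none of the 5 LWDL arrays. ELOVL6 was lower in LWDM in fat (-2.52) and in liver (-1.69).

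The 3 named genes with the largest interactions were HOXA9, TMEM60 and PLA2G2D. HOXA9, a factor of posterior body position, was 4.38 to 6.15 in LWDM fat and was measured on 2 of 5 LWDL fat arrays, at 0.51 and 1.89. It was listed at 0 on all liver arrays, so its interaction has no measured liver level behind it. TMEM60, a membrane protein, had a muscle interaction of -6.94 ± 1.62 (adjusted p = 0.014), and took either of 2 levels, of which the lower was not well above background on 8 of its 9 arrays. In fat it was -4.96, 0.81, -3.86, -3.14 and 1.50 in LWDL replicates 1 to 5, and in liver -3.47, 1.44, -4.03, -4.77 and 1.61 in the same order. In muscle it was 1.50, 2.26, -4.36, 1.24, -4.60 and -3.44 in LWDM replicates 1 to 6. On every other array it lay between 1.12 and 2.41, so that the low arrays bore the LWDL label in fat and liver and the LWDM label in muscle. PLA2G2D, a secreted phospholipase, had a muscle interaction of 6.63 ± 1.50 (adjusted p = 0.011). Its liver levels were 1.50 to 3.42 in LWDL and -3.78 to -0.04 in LWDM, where 2 of 6 arrays measured it, and in muscle the measured arrays were LWDM replicates 3 and 6, at 3.91 and 4.07.

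**Figure D5:**
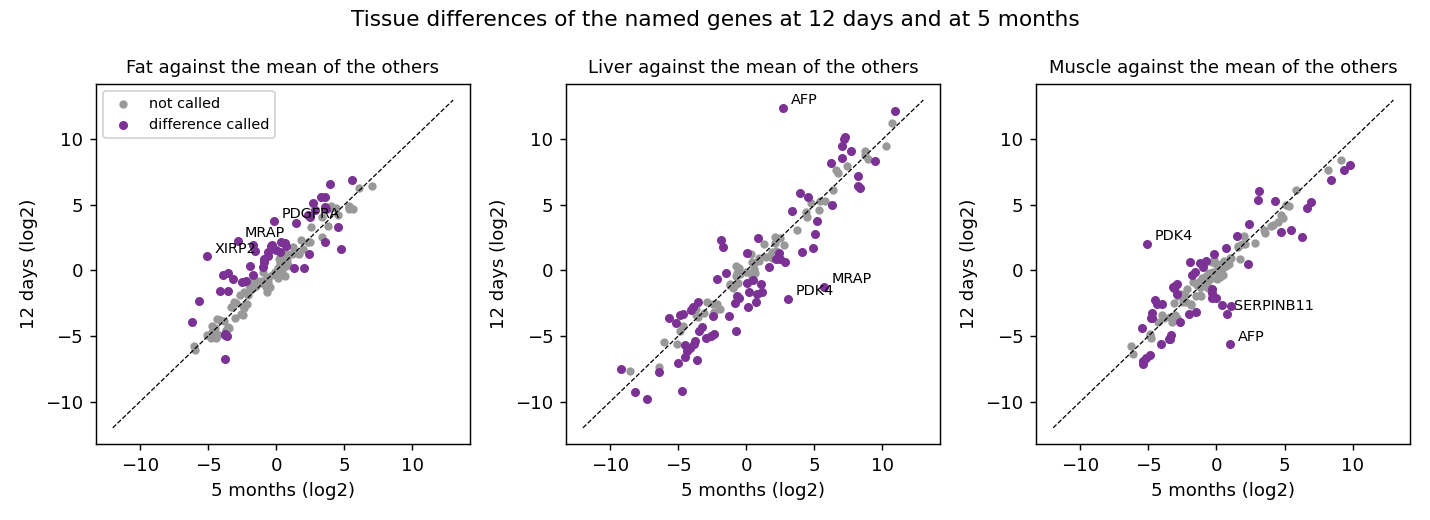
Tissue difference of the named genes at 5 months (x axis, log2) and at 12 days (y axis, log2), each tissue against the mean of the others; purple points are genes whose difference between the ages was called, the dashed line marks equal values, and the 3 largest changes are named. AFP in liver and PDK4 in muscle lie far above the line and MRAP in liver far below it.

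Set beside pigs at 5 months, tissue differences were unlike at the ages for a minority of all probes but for most members of some lists. Of 34883 probes tested over both ages, 4896 (14.0%) had a fat difference that was unlike at the ages, 4149 (11.9%) a liver difference and 3925 (11.3%) a muscle difference. With normexp and loess these counts fell to 1821, 2045 and 1830. The 15 fat arrays of 5 months are fat by title and tissue label, while their descriptions name liver, and they were taken as fat. Their mean levels were 3.46 to 3.97 over the adipocyte markers and -5.88 to -5.38 over the hepatocyte markers, against -0.66 to 0.28 and -0.51 to -0.05 on the liver arrays of that age. The ages were other animals, scanned on other days, and age and scan day cannot be told apart.

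AFP in liver fell from 6.21 ± 0.61 (SD, n = 11) at 12 days to -2.18 ± 0.39 (n = 15) at 5 months, with no overlap, and its liver difference was 9.67 ± 0.48 larger in the piglets (adjusted p = 3.4e-28), with fat and muscle not measured at 12 days. PDK4 in muscle was 1.49 ± 0.93 at 12 days and -5.41 ± 0.95 at 5 months, again apart (7.12 ± 0.47; adjusted p = 1.5e-21), so that muscle was above the other tissues in piglets and below them later. MRAP in liver went the other way, from -4.18 ± 0.61 to 0.99 ± 1.37 (-6.97 ± 0.34; adjusted p = 1.4e-28). No 12-day liver or muscle array measured it, so those levels are bounds, and fat lay above liver in the piglets (-1.85 ± 0.54) and below it at 5 months (-4.72 ± 0.51).

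By groups, cholesterol synthesis had a smaller liver difference at 12 days for 13 of 14 genes and a larger muscle difference for 13. The muscle difference also holds the liver level, so these are not separate results. The list's mean level in muscle overlapped between the ages, at -3.45 to -2.43 at 12 days and -3.77 to -3.18 at 5 months. The list's mean level in liver was -0.50 to 1.19 at 5 months. At 12 days it was -3.40 to -3.16 in LWDM and -2.15 to 0.04 in LWDL, with 4 of the 5 LWDL arrays at -0.84 or above, so that the age difference lay mostly with LWDM. Fatty acid oxidation had a smaller liver difference for 8 of 13 and a larger muscle difference for 8. Its mean level ran from -1.02 to -0.18 at 12 days and -0.32 to 0.61 at 5 months in liver, and from -1.49 to -0.59 and -2.50 to -1.47 in muscle. Of the hepatocyte markers 3 had a larger and 7 a smaller liver difference. All 17 skeletal muscle markers had a larger fat difference at 12 days, and their mean level on fat arrays was 0.43 to 4.26 at 5 months (median 2.14), beside 3.23 to 5.33 in the piglets. XIRP2 in fat was 5.16 ± 2.66 at 12 days and -0.62 ± 1.85 at 5 months. Of the 9 adipocyte markers 2 had a larger fat difference in the piglets and none a smaller one.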

How the data were processed

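RNA of 3 tissues was hybridised by the authors to Agilent 2-colour pig arrays (44638 spots, 1417 of them controls) and read with Agilent Feature Extraction 9.5. The deposited log10 ratios of Cy5 over Cy3 and the deposited intensity of each channel (background-subtracted and dye-normalised by that program) were used; there was no dye swap, so dye bias does not cancel. The ratio was turned to log2 of Cy3 over Cy5. Control spots were dropped, and a probe was kept if well above background in Cy3 on every array of at least 1 tissue and breed type group. Members, gene lists and tests were chosen with earlier results of these data known. limma 3.58.1 (R 4.3.3) fitted tissue by breed type over the 32 arrays, with Benjamini-Hochberg adjustment over all probes tested; the 5-months arrays joined a separate fit for age. A gene was read from its brightest probe. Named were, per tissue, the 10 highest and 5 lowest genes whose arrays lay apart, up to 5 members of each list and those that went the other way, the largest interactions, and 2 families; some genes that this rule names are not reported here. "At least" folds used Cy3 after normexp (offset 50), loess and Aquantile, with the floor at the lowest signal well above background, and are open to dye bias. In tests on simulated data with 200 probes changed by 1.5 log2, 196, 199 and 198 were recovered for fat, liver and muscle, and 164, 165 and 164 for their interactions with breed type, where 10, 7 and 4 unchanged probes were called. The number of arrays limits the precision. Same-numbered fat and liver arrays deviated together (11 of 11 over a correlation of 0.1), those of muscle did not (2 of 10 with fat, 3 of 10 with liver). Each slide of piglets held 1 tissue, so no tissues were compared on the same slide. Differences between tissues therefore cannot be told apart from differences between their slides.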

Additional observations from a re-analysis of the deposited data

Results flagged for a closer look

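In 8 of 138 tests of a list's mean level within a group, the highest or lowest array stood far from the others, about the share (1 in 20) that chance gives. These were fatty acid synthesis in fat LWDM replicate 5 (-0.13, others 0.85 to 1.39), plasma proteins in muscle LWDL replicate 5 (-5.16, others -5.65 to -5.59), drug metabolism in liver LWDL replicate 5 (-1.19, others -1.49 to -1.42) and calcium handling in liver LWDL replicate 1 (-0.11, others 0.22 to 0.32). The others were endothelium in liver LWDM replicate 2 (-0.021, others 0.31 to 0.46), nerve genes in muscle LWDL replicate 1 (-0.28, others 0.65 to 0.74) and muscle LWDM replicate 1 (1.04, others 0.21 to 0.37), and metallothioneins in muscle LWDM replicate 1 (-7.92, others -7.64 to -7.53).

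By the test of the interaction, the tissue differences were unlike between the breed types at 245 (fat), 278 (liver) and 671 (muscle) probes and between the ages at 4896, 4149 and 3925. Of the calls by breed type in fat, 53.9% were higher in LWDM, and 43.0% in Cy3 alone. Of those by age, 42.1% were larger at 12 days in liver and 49.0% in muscle, against 26.5% and 67.8% after normexp and loess.

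The largest of the named genes were TMEM60 (-6.94) and PLA2G2D (6.63) in muscle and HOXA9 (5.59, with no measured level in liver and 2 of 5 LWDL fat arrays measured) in fat by breed type, and AFP in liver (9.67), PDK4 in muscle (7.12) and MRAP in liver (-6.97) by age.

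The Cy5 channel of the left-out muscle array had a mean of 6.03 over the skeletal muscle markers, above all other arrays, and -6.04 over the hepatocyte markers, where the other 32 had 1.21 to 1.41. Its Cy3 channel had 6.18 over the muscle markers, below the 6.62 to 7.46 of the other muscle arrays.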

How the results depend on the processing

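A stricter filter on dim probes gave 4319 called probes for fat (142 enriched), 6390 for liver (1060 enriched) and 6412 for muscle (471 enriched). Normexp with loess gave 4782 for fat (232 enriched), 6214 for muscle, 1166 liver-enriched probes, 163 and 317 interactions with breed type in liver and muscle, and 1821, 2045 and 1830 with age in fat, liver and muscle. A test against the 2-fold limit itself gave 4579 for fat. With the left-out muscle array back in, 56 probes differed by breed type in fat and 81 in liver. Leaving out 1 array at a time gave 156 to 346 probes by breed type in fat (156 without fat LWDL replicate 3) and 335 to 1036 in muscle (335 without muscle LWDL replicate 3, 409 without LWDM replicate 3, 1036 without LWDL replicate 1), 7284 to 7639 called in fat, 10267 to 10425 in liver and 10016 to 10207 in muscle. With the replicate number as a block, 7391, 10361 and 10078 were called for fat, liver and muscle, 274, 304 and 758 by breed type and 4895, 4152 and 3927 by age, and no count moved by over 1.5 times. The correlation estimated for that block in the tissue fit was 0.00171, so its tissue counts could hardly move. With only fat and liver blocked by replicate number, the correlation was 0.272. That fit called 7393, 10365 and 10090 probes for fat, liver and muscle.

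Of the single genes, these changed sign. In 1 breed type alone, they were HBE1 in fat (0.31, LWDL), ANK1 in fat (0.53, LWDM), IGF1 in liver (-0.38, LWDM), HOXA9 in fat (-2.03, LWDL), RPL31 in muscle (-0.16, LWDL), RPL10 in muscle (0.13, LWDM) and TMEM60 in muscle (3.68, LWDL). ANK1 in fat (-0.21) was 0.014 with the left-out array, and -0.35 to 0.019 leaving out 1 array at a time (highest without fat LWDL replicate 5). TMEM60 in muscle (-0.37) was -0.80 to 0.21 (0.19, 0.21 and 0.086 without muscle LWDM replicate 3, 5 or 6). Without the muscle slide scanned on another day (LWDL replicates 3, 4 and 5), an alternative chosen after seeing the data, RPL10 was 0.16 and PLA2G2D 1.07 in muscle. FABP9 in muscle was -0.43 after normexp. Of the other comparisons of single genes with an alternative, 6581 kept direction and side of the threshold, 56 lost the call and 24 gained it. The causes were not tested. Genes not well above background in a tissue have only a bound there.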
